A study of Arabidopsis thaliana with 9 samples.

Results

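Transcript levels were described for 10 genes of the gibberellin pathway of Arabidopsis thaliana, picked by locus identifier from a table of 27647 loci, of which 24331 carried values. They were 3 late synthesis enzymes (GA20OX1, AT4G25420; GA20OX2, AT5G51810; GA3OX1, AT1G15550) and 1 inactivating enzyme (GA2OX2, AT1G30040). The others were 3 DELLA repressors (GAI, AT1G14920; RGA, AT2G01570; RGL1, AT1G66350) and the 3 gibberellin receptors (GID1A, AT3G05120; GID1B, AT3G63010; GID1C, AT5G27320). Whole seedlings, grown in light and 5 days old, gave 9 mRNA libraries: 3 of MIR394A OE, which overexpresses the microRNA gene MIR394A, 3 of Col-0 given 2 µM Brz in the medium, and 3 of Col-0 without it, for which no vehicle is named. Col-0 is the wild-type strain, and the labels do not spell out Brz, the promoter of the transgene, or whether MIR394A OE is 1 line. All seeds were chilled at 4 °C for 4 days and then kept at 22 °C in cycles of 16 h of light and 8 h of darkness. The series' title places the comparison in the study of miR394, brassinosteroid signalling and hypocotyl growth.

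Gibberellins are growth hormones that promote germination, hypocotyl elongation and flowering. GA20OX and GA3OX enzymes carry out the last steps to the active hormone, and GA2OX enzymes inactivate it. The hormone binds a GID1 receptor, the pair binds a DELLA repressor, and the F-box protein SLY1 then marks the DELLA protein for destruction. Transcripts of GA20OX1, GA3OX1 and the GID1 genes are known to fall after gibberellin is applied, and DELLA proteins are known to bind BZR1, a transcription factor of the brassinosteroid pathway.

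The DELLA genes are shown by the coding stretch that gave the family its name, the site through which the receptor recognises the repressor, because levels of 3 close relatives are compared. The sequences are RefSeq's for TAIR10.1, 5′ to 3′ on the coding strand, from chr1:5149480-5149524 (plus strand) for GAI, chr2:257186-257230 (minus strand) for RGA and chr1:24748405-24748449 (plus strand) for RGL1. Each gives 45 bases inside a single-exon gene, with the 5 codons at the motif's place in capitals. In 1-letter amino acid code these codons read DELLA in GAI and RGA, and DELLV in RGL1.
GAI: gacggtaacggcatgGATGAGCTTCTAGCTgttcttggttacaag
RGA: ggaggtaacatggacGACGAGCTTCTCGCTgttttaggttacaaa
RGL1: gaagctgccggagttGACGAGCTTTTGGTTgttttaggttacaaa
Over the aligned coding sequence GAI and RGA were identical at 82.4% of bases, GAI and RGL1 at 70.4%, and RGA and RGL1 at 68.5%. Among the receptors GID1A and GID1C were closest, at 83.8%, against 71.4% for GID1B and GID1C and 70.5% for GID1A and GID1B. GA20OX1 and GA20OX2 were identical at 79.4%. No stretch of 50 bases of any member's transcripts occurred in another gene (0.0% shared), and no member overlapped another annotated gene, so reads of 1 relative are separable from those of another at that length.

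Levels are FPKM, fragments per kilobase of transcript and per M reads, as the authors deposited them. Depth fitted from the spacing of low FPKM values was 21.50 to 22.20 M reads per library. Green shoot and root markers were present in every library, with summed levels of 28211 to 41355 FPKM for 3 shoot genes and 70.3 to 240 FPKM for 4 root genes. The root gene CASP1 had 54.38, 45.94 and 54.21 FPKM in MIR394A OE, against 25.02, 40.08 and 41.66 FPKM in Col-0, without overlap. EXPA7, PRP3 and LRX1, the other root genes, overlapped, and 5.77% of all genes did not overlap. No root gene passed the test in that comparison. LCR, an F-box gene that miR394 is known to target, stood at 27.16, 27.93 and 24.78 FPKM in MIR394A OE and at 24.18, 21.83 and 28.92 FPKM in Col-0, so the groups overlapped, and the MIR394A precursor was not analysed here. On a principal component analysis of 17662 tested genes the Brz-treated libraries separated on the first component, which held 61.9% of the variance, with replicate 1 at 23.8 and replicates 2 and 3 at 64.9 and 64.5, against -30.7 to -18.2 for all other libraries. On the second, which held 16.7%, 1 library of each group stood apart from the rest of its group: replicate 3 of MIR394A OE, replicate 1 of Brz-treated Col-0 and replicate 2 of Col-0.

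RGA had the highest mean of the members in every group, and the lowest was GA20OX2 in MIR394A OE and Col-0 and GA20OX1 in Brz-treated Col-0. GA20OX2 averaged 0.647 FPKM in MIR394A OE, 1.31 FPKM in Brz-treated Col-0 and 0.857 FPKM in Col-0, and RGA averaged 35.1, 28.9 and 31.7 FPKM in the same groups. At the fitted depth these levels came to about 16 to 65 reads per library for GA20OX2 and 1384 to 1868 for RGA, so counting error is largest for the 2 GA20OX genes and GA2OX2 (65 to 114 reads). GA20OX1, at 29 to 77 reads, was the other member under 100 reads in every library. All 10 members passed the filter of at least 1 FPKM in at least 3 libraries. GA20OX2 passed it through Brz-treated replicates 1 and 2 and Col-0 replicate 2.

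**Figure D1:**
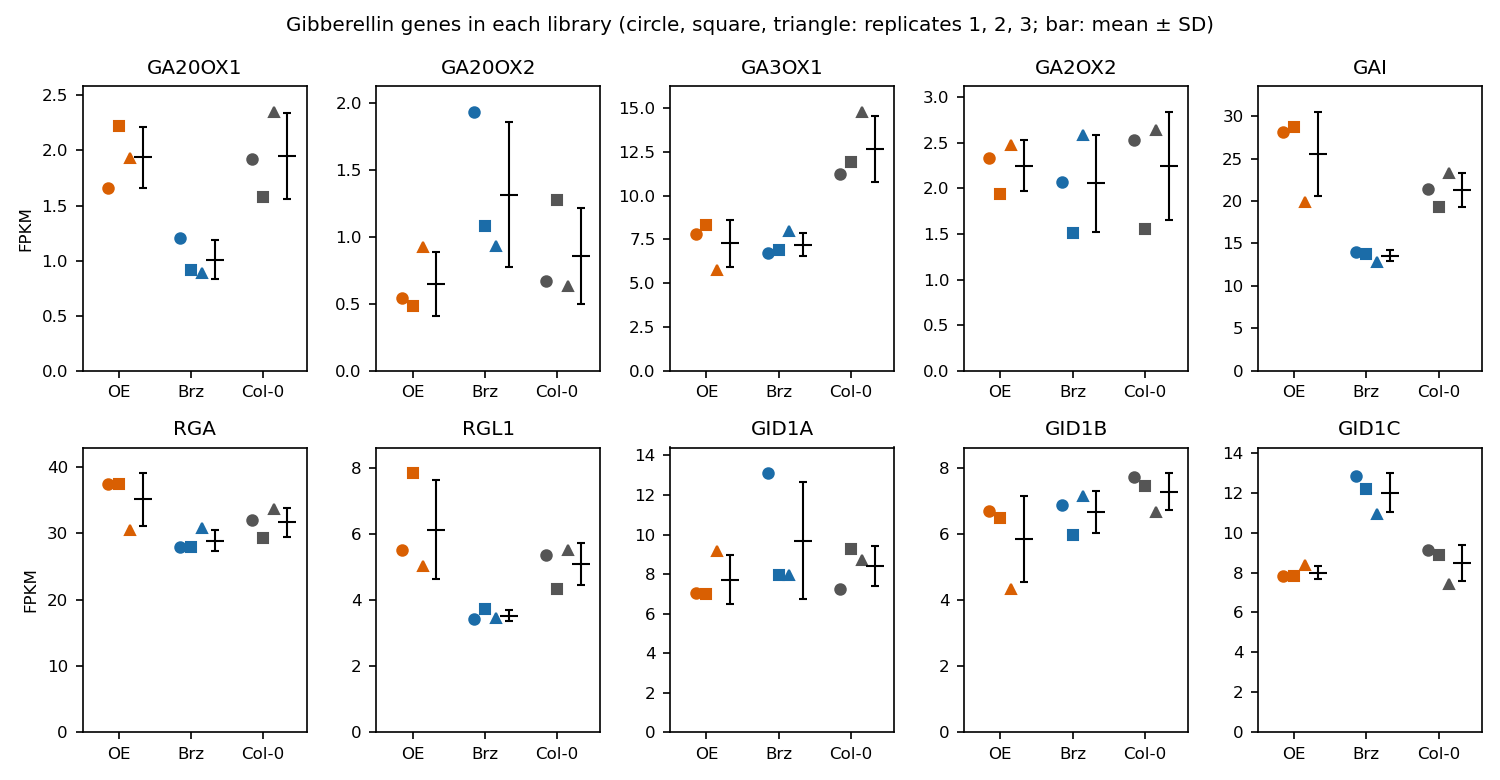
FPKM of the 10 genes (y axis, from 0) in MIR394A OE, Brz-treated Col-0 and Col-0 (x axis), 1 symbol per library, with the mean ± SD of 3 libraries beside them. GA3OX1 in both MIR394A OE and Brz-treated libraries (5.76 to 8.31 FPKM) lies below all Col-0 libraries (11.22 to 14.78 FPKM), and GAI and RGL1 are lowest in the Brz-treated libraries.

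The first question was whether MIR394A overexpression altered these genes. None of the 10 passed the test, in a comparison where 0.034% of all genes did (6 genes, all lower, of 17662). Without the 3 libraries that stood apart none passed either, at a background of 0.0234%. GA3OX1, whose enzyme makes the active hormone, had 7.8, 8.31 and 5.76 FPKM in MIR394A OE, against 11.22, 11.91 and 14.78 FPKM in Col-0. Its libraries did not overlap between the groups, the only member of which that held, and 5.77% of all genes showed the same. The log2 fold change of FPKM + 1 was -0.72 ± 0.18 (SE, 95% interval -1.11 to -0.34), with an adjusted p of 1.0 (limma, Benjamini-Hochberg over all genes, n = 3 each) and an unadjusted p of 0.0014. Unadjusted p-values under 0.05 were found for 401 of the 17662 genes in this comparison. Adding 1 to FPKM makes changes of genes near or under 1 FPKM look smaller than they are. The labels do not say how replicates were obtained, so p-values cover only library-to-library spread, and some of it may be technical. In libraries of whole seedlings, fewer cells of a type and less RNA per cell cannot be told apart.

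The other members gave MIR394A OE estimates between -0.29 (GID1B) and 0.24 (GAI), and each 95% interval included 0. GAI had 28.14, 28.67 and 19.88 FPKM in MIR394A OE, against 21.39, 19.25 and 23.3 FPKM in Col-0. MIR394A OE replicates 1 and 2 were above all Col-0 libraries and replicate 3, which stood apart on the second component, was within them. For GAI the 95% interval ran from -0.12 to 0.59, so it leaves room for no change and for a change within it. The estimates of RGA (0.14) and RGL1 (0.21) were also above 0, with overlapping libraries. GID1B had 6.7, 6.47 and 4.34 FPKM in MIR394A OE, against 7.71, 7.46 and 6.65 FPKM in Col-0, and only MIR394A OE replicates 2 and 3 lay below every Col-0 library. GA20OX1 averaged 1.94 ± 0.28 FPKM in MIR394A OE and 1.95 ± 0.39 FPKM in Col-0 (SD, n = 3 each).

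**Figure D2:**
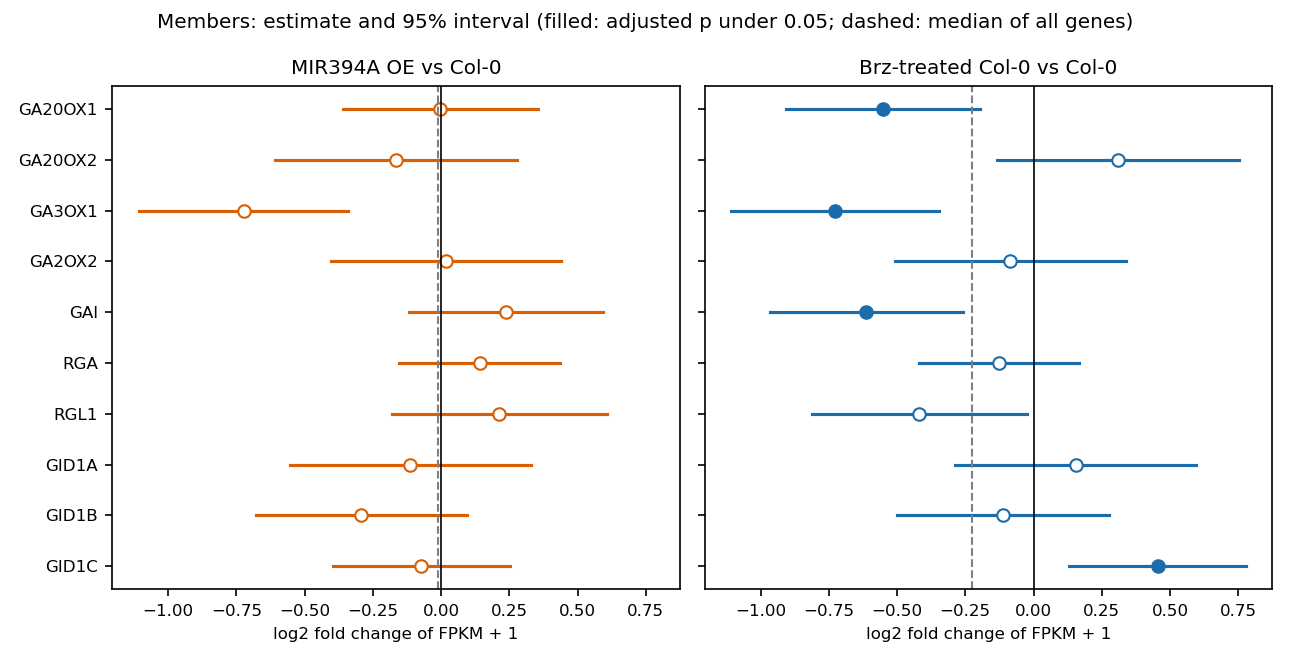
Log2 fold change of FPKM + 1 (x axis) of the 10 genes (y axis) for MIR394A OE vs Col-0 and Brz-treated Col-0 vs Col-0; bars are 95% intervals from limma, filled points have an adjusted p under 0.05 and the dashed line is the median of all tested genes. GA3OX1 lies at -0.72 and -0.73 but is filled only for Brz, and the Brz median of all genes is -0.22; RGA, GID1B and GA2OX2 turn positive for Brz under median-ratio scaling.

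Brz treatment was the second comparison. Of the 10 members 1 rose (GID1C) and 3 fell (GA20OX1, GA3OX1 and GAI), when 13.2% of all genes rose and 28.7% fell. The members' median log2 fold change was -0.12, against -0.22 over all genes. Median-ratio scaling moved the all-gene median to -0.01 and the split of all genes to 23.7% higher and 21.4% lower, and removing the trend on transcript length gave 13.1% higher and 10.4% lower. Under median ratios 3 members were called higher (GID1A, GID1C and GA20OX2) and 0 lower. After length correction 2 were higher (GID1A and GID1C) and 1 lower (GA3OX1), so GID1C was the member called in all 3 versions. With the 3 libraries that stood apart left out, 1 member rose and 4 fell, RGL1 being added, at a background of 16.9% higher and 42.8% lower. Changes are given below also relative to the all-gene median.

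Of the synthesis genes, GA3OX1 had 6.73, 6.92 and 7.96 FPKM in Brz-treated Col-0, against 11.22, 11.91 and 14.78 FPKM in Col-0. The groups were well separated, with means of 7.20 ± 0.66 FPKM in Brz-treated Col-0 and 12.6 ± 1.9 FPKM in Col-0 (SD, n = 3 each). The log2 fold change was -0.73 ± 0.18 (SE; adjusted p = 0.0073 by limma), or -0.50 relative to the all-gene median. The call held with each library left out in turn (adjusted p 0.011 to 0.034) and after correction for length (-0.64, adjusted p = 0.046). It was lost under 2 other scalings, by median ratios (-0.49, adjusted p = 0.082) and by quantiles (-0.49, adjusted p = 0.084).

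GA20OX1, which acts before it in the pathway, had 1.21, 0.92 and 0.89 FPKM in Brz-treated Col-0, against 1.92, 1.58 and 2.35 FPKM in Col-0. All 3 treated libraries were below the lowest Col-0 library. It fell by 0.55 on the log2 scale (SE 0.16, adjusted p = 0.019 by limma), or by 0.33 relative to the all-gene median. The call was lost without Brz-treated replicate 2 or 3 (adjusted p = 0.070 and 0.075) and without Col-0 replicate 1 or 3 (0.051 and 0.076). It was also lost under median ratios (-0.41, adjusted p = 0.0501), quantiles (-0.30, adjusted p = 0.17) and length correction (-0.45, adjusted p = 0.066). GA20OX2 had 1.93, 1.08 and 0.93 FPKM in Brz-treated Col-0, against 0.67, 1.27 and 0.63 FPKM in Col-0. The groups overlapped through Col-0 replicate 2, and the estimate of 0.31 did not pass (adjusted p = 0.23), though median-ratio scaling gave 0.44 with an adjusted p of 0.043. GA20OX2 met the filter through Brz-treated replicates 1 and 2 and Col-0 replicate 2, so little rests on that call.

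The balance within the GA20OX pair was described as a share, without a test. GA20OX1 made up 38.5%, 46.0% and 48.9% of the FPKM of GA20OX1 plus GA20OX2 in Brz-treated Col-0, against 74.1%, 55.4% and 78.9% in Col-0. In MIR394A OE it made up 75.5%, 82.2% and 67.7%. The treated libraries lie below all others, with the narrowest gap to Col-0 replicate 2. The share rests on about 16 to 65 reads per library for GA20OX2 and 29 to 77 for GA20OX1. GA20OX2 met the filter through Brz-treated replicates 1 and 2 and Col-0 replicate 2, so little rests on this separation. The pair have similar transcript lengths (1544 and 1560 bases), and a scaling factor common to a library cancels in this share. GA2OX2, the inactivating enzyme, had 2.07, 1.51 and 2.58 FPKM in Brz-treated Col-0, against 2.53, 1.56 and 2.64 FPKM in Col-0. These groups overlapped, with an estimate of -0.08 (95% interval -0.51 to 0.34).

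Of the DELLA repressors, GAI had 14.01, 13.82 and 12.86 FPKM in Brz-treated Col-0, against 21.39, 19.25 and 23.3 FPKM in Col-0. The treated libraries were close to each other and below every Col-0 library. GAI fell by 0.61 on the log2 scale (SE 0.16, adjusted p = 0.012 by limma), or by 0.39 relative to the all-gene median. The call held with each library left out (adjusted p 0.014 to 0.048) and ended after length correction (-0.09, adjusted p = 0.75), also without the 3 libraries that stood apart (-0.08, adjusted p = 0.63). It ended too under scaling by median ratios (-0.37, adjusted p = 0.16) and by quantiles (-0.47, adjusted p = 0.066). GAI has the longest transcript of the members, 2434 bases, and the median change of genes within 10% of that length was -0.52.

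RGL1 had 3.43, 3.72 and 3.45 FPKM in Brz-treated Col-0, against 5.37, 4.35 and 5.52 FPKM in Col-0. The groups did not overlap, as for 4 other members and 50.1% of all genes, but the estimate of -0.42 did not pass (adjusted p = 0.081). RGA had 27.94, 28.01 and 30.74 FPKM in Brz-treated Col-0, against 32.0, 29.33 and 33.65 FPKM in Col-0, and the groups overlapped. Its estimate was -0.13 (95% interval -0.42 to 0.17), turning to 0.13 when scaled by median ratios and to 0.35 after length correction. RGA was called higher only with length correction and the 3 libraries that stood apart left out (0.43, adjusted p = 0.019 by limma).

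GAI was also compared with RGA inside each library, since the pair differ little in length (2434 and 2322 bases). The ratio of GAI to RGA in FPKM was 0.501, 0.493 and 0.418 in Brz-treated Col-0, against 0.668, 0.656 and 0.692 in Col-0. In MIR394A OE it was 0.753, 0.767 and 0.65, so only the treated libraries lay apart. The summed FPKM of GAI, RGA and RGL1 was 45.4 to 47.1 in Brz-treated Col-0, against 52.9 to 62.5 in Col-0, and GAI held 27.3% to 30.9% of it in the treated libraries and 36.4% to 37.3% in Col-0. These sums and shares are descriptions, without a test, and the sum is subject to the same length trend as its members.

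**Figure D3:**
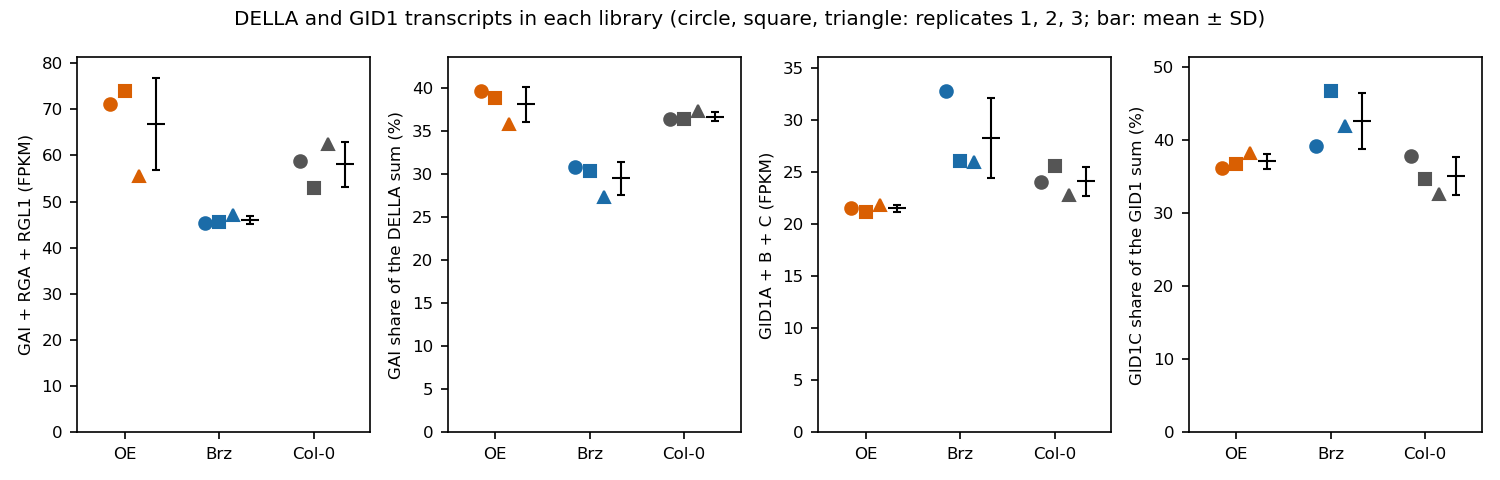
Summed FPKM of the 3 DELLA members and of the 3 GID1 receptors, and the percentage of each sum held by GAI and by GID1C (y axes, from 0), in MIR394A OE, Brz-treated Col-0 and Col-0; symbols are libraries, bars the mean ± SD. The Brz-treated libraries have the lowest DELLA sums (45.4 to 47.1 FPKM), the lowest GAI shares and the highest GID1C shares (39.1% to 46.7%).

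Of the receptors, GID1C had 12.83, 12.19 and 10.91 FPKM in Brz-treated Col-0, against 9.12, 8.87 and 7.44 FPKM in Col-0. All treated libraries were above all Col-0 libraries. GID1C rose by 0.46 ± 0.15 on the log2 scale (SE, adjusted p = 0.029 by limma), or by 0.68 relative to the all-gene median. Scaling by median ratios gave a larger estimate (0.69, adjusted p = 0.0022), as did length correction (0.73, adjusted p = 0.0037). Leaving out any 1 library except Brz-treated replicate 1 ended the call (adjusted p 0.050 to 0.11), with estimates of 0.37 to 0.52. A fit of the Brz-treated and untreated Col-0 libraries alone ended it too (adjusted p = 0.053).

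GID1A had 13.09, 7.98 and 7.97 FPKM in Brz-treated Col-0, against 7.27, 9.25 and 8.72 FPKM in Col-0. Brz-treated replicate 1 alone lay above Col-0, and the estimate of 0.15 became -0.06 without it. GID1A passed when scaled by median ratios (0.39, adjusted p = 0.041) or corrected for length (0.47, adjusted p = 0.029). GID1B had 6.87, 5.96 and 7.15 FPKM in Brz-treated Col-0, against 7.71, 7.46 and 6.65 FPKM in Col-0. It overlapped, with an estimate of -0.11 that turned to 0.12 with median-ratio scaling. The ratio of GID1C to GID1B was 1.87, 2.05 and 1.53 in Brz-treated Col-0, against 1.18, 1.19 and 1.12 in Col-0. In MIR394A OE it was 1.16, 1.21 and 1.93, and replicate 3, which stood apart, was as high as the treated libraries.

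The ratio of DELLA to receptor transcripts combined both families. The summed FPKM of all 5 DELLA genes over that of the 3 receptors was 1.51, 1.89 and 1.99 in Brz-treated Col-0, against 2.62, 2.24 and 2.97 in Col-0. In MIR394A OE it was 3.64, 3.81 and 2.78. Brz-treated libraries were below all others, and MIR394A OE replicates 1 and 2 above all others. The DELLA transcripts are longer than the receptor transcripts, so the length trend moves with this ratio, and its part was not tested.

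Longer transcripts had lower estimates in the treated libraries. Across 17530 genes the rank correlation (Spearman) of the Brz log2 fold change with transcript length was -0.67, against -0.15 for MIR394A OE, as a description across genes that are not independent. Against genes within 10% of their own length, GA3OX1 lay 0.64 and GA20OX1 0.45 below the median on the log2 scale, while GID1C lay 0.73 and GID1A 0.47 above it. GAI lay 0.10 and RGL1 0.04 below, and RGA 0.35 above. The sum of 4 seed storage markers was 2.34 to 10 FPKM in Brz-treated Col-0, against 0.77 to 1.03 FPKM in Col-0, and 1 of the 4, CRA1, was tested. CRA1 had 1.6, 5.44 and 1.83 FPKM in Brz-treated Col-0, against 0.48, 0.78 and 0.7 FPKM in Col-0, and met the filter only through the treated libraries, so its call supports nothing. SESA1, another of them, was at 0 in Brz-treated replicates 1 and 3. Of 3 green shoot markers LHCB1.3, which has near-identical copies, rose and GLDP1 fell, and 0 of 4 root markers passed. The part of length or of these cell types in the members' changes was not tested.

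**Figure D4:**
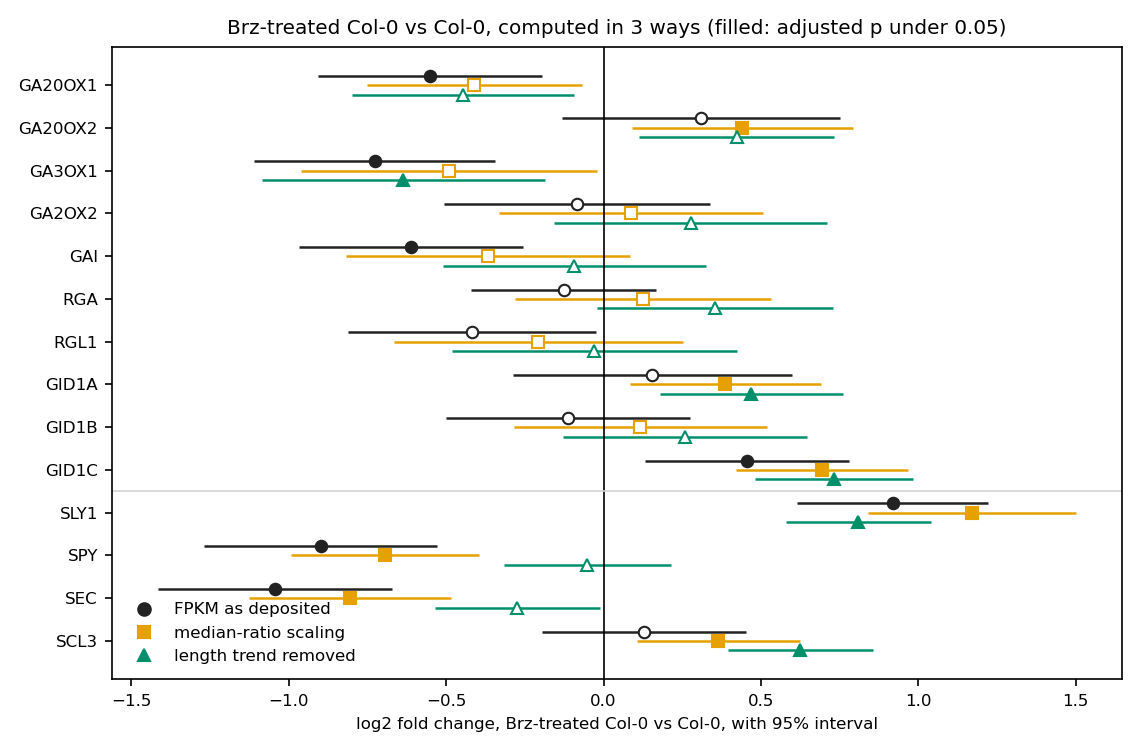
Log2 fold change for Brz-treated Col-0 vs Col-0 (x axis, 95% intervals) of the 10 members and 4 other pathway genes (y axis), from FPKM as deposited, scaled by median ratios, or corrected for transcript length; filled symbols have an adjusted p under 0.05. GA3OX1 and GA20OX1 stay below 0 and GID1C and SLY1 above 0 in all 3, while RGA, GID1B and GA2OX2 change sign and SPY moves from -0.90 to -0.05.

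The upstream regions of GA3OX1 and GID1A are shown, GA3OX1 because it was lowest against Col-0 in both comparisons and GID1A because it held a searched motif. Each is 250 bases before the annotated start in TAIR10.1 (RefSeq), 5′ to 3′ on the gene's strand: chr1:5346343-5346592 (minus strand) for GA3OX1 and chr3:1430113-1430362 (plus strand) for GID1A. Capitals mark a match.
GA3OX1: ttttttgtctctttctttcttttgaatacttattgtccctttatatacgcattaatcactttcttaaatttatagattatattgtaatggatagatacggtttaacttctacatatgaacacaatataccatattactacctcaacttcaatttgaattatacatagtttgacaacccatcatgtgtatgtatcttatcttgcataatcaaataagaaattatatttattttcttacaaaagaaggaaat
GID1A: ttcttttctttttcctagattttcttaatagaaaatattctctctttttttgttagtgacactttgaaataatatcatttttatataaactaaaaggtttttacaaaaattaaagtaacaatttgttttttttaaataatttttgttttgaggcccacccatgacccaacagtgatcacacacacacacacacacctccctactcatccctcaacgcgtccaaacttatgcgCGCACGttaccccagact
The motifs searched, on both strands, were the G-box CACGTG and the brassinosteroid response element CGTGTG or CGTGCG, which can overlap because both hold CGTG. The G-box occurred in 6.5% and the response element in 6.7% of the same windows of 27443 protein-coding genes, and either in 11.6%. Among the members whose windows are reported, GID1A alone held a match, with a response element that begins 18 bases upstream of the start and reads on the opposite strand. The match is a description of these letters only.

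MIR394A OE was then set against Brz-treated Col-0, which is also the test of whether the changes of the 2 groups against their shared Col-0 libraries differ. GA20OX1, GAI and RGL1 were higher in MIR394A OE and GID1C was lower, 4 of 10, when 25.8% of all genes were higher and 12% lower. GAI differed by 0.85 ± 0.16 on the log2 scale (SE, adjusted p = 0.0028 by limma), with 28.14, 28.67 and 19.88 FPKM in MIR394A OE against 14.01, 13.82 and 12.86 FPKM in Brz-treated Col-0. RGL1 had 5.51, 7.83 and 5.03 FPKM in MIR394A OE against 3.43, 3.72 and 3.45 FPKM in Brz-treated Col-0 (0.63, adjusted p = 0.018). GA20OX1 differed by 0.55 (adjusted p = 0.021) and GID1C by -0.53 (adjusted p = 0.017). Libraries of the groups did not overlap for 5 members, these 4 and GA20OX2, when 46.5% of all genes did not. GA20OX2 had 0.54, 0.48 and 0.92 FPKM in MIR394A OE, against 1.93, 1.08 and 0.93 FPKM in Brz-treated Col-0. Brz-treated replicates 1 and 2 and Col-0 replicate 2 met the filter for it and no MIR394A OE library did, so its separation supports nothing.

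GA3OX1 did not pass, at 0.00 (95% interval -0.38 to 0.39; adjusted p = 0.98), with 7.29 ± 1.35 FPKM in MIR394A OE and 7.20 ± 0.66 FPKM in Brz-treated Col-0 (SD, n = 3 each). That interval leaves room for a difference of up to 0.39 in either direction. The interval for RGA was -0.03 to 0.56. After length correction GAI was 0.36 and no longer passed (adjusted p = 0.20), though it did when the 3 libraries that stood apart were left out as well (0.41, adjusted p = 0.030). With length correction alone no member was higher and 3 were lower (GID1A, GID1C and GA20OX2), at a background of 9.29% higher and 11.1% lower. The limit of the filter given above for GA20OX2 holds here too. With those 3 libraries also left out 1 was higher (GAI) and 3 lower (GID1A, GID1B and GID1C). In that fit 3064 of 17106 genes were higher and 2842 lower. Leaving out those 3 libraries without length correction gave 4 higher, RGA being added, and 1 lower, at 41.6% and 17.6%. The GAI call held with each library left out (adjusted p 0.00067 to 0.019). Those of RGL1 (up to 0.084), GA20OX1 (up to 0.083) and GID1C (up to 0.065) were lost without MIR394A OE replicate 2. RGL1 and GA20OX1 were also lost without Brz-treated replicate 3, GA20OX1 and GID1C without Brz-treated replicate 2, and GID1C without MIR394A OE replicate 1.

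Of 33 other pathway genes 18 were tested, 13 were below the filter (at most 1.13 FPKM) and 2 had blank values. None of the 18 passed in MIR394A OE against Col-0 (limma), and 1 had an unadjusted p under 0.05, as did 401 of all 17662 genes. That gene was RGL2, another DELLA gene, with 5.14, 4.69 and 3.05 FPKM in MIR394A OE against 2.99, 2.55 and 2.97 FPKM in Col-0 (0.44 ± 0.18, adjusted p = 1.0). In Brz-treated Col-0 2 rose and 2 fell, when 13.2% of all genes rose and 28.7% fell, with a median of -0.13 against -0.22 over all genes. SLY1, the F-box protein that marks DELLA proteins for destruction, had 35.69, 39.64 and 37.33 FPKM in Brz-treated Col-0, against 19.26, 21.19 and 17.83 FPKM in Col-0. SLY1 libraries were far apart between the groups (0.92 ± 0.14, adjusted p = 0.00089), also after correction for length (0.81, adjusted p = 0.0024), and MIR394A OE had 16.99, 16.83 and 20.51 FPKM.

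SEC and SPY, sugar transferases that modify DELLA proteins, fell by 1.04 and 0.90 on the log2 scale (adjusted p = 0.0011 and 0.0023 by limma). SEC had 11.2, 8.2 and 7.17 FPKM in Brz-treated Col-0, against 19.24, 18.93 and 18.91 FPKM in Col-0. SPY had 3.9, 2.5 and 2.91 FPKM in Brz-treated Col-0, against 6.19, 6.48 and 7.08 FPKM in Col-0. For both genes the groups were apart. Both have long transcripts (3418 and 3933 bases), and neither passed with the length trend removed (-0.27 and -0.05, adjusted p = 0.12 and 0.78). LBD40, listed among DELLA target genes, rose by 0.91 (adjusted p = 0.0054) at low levels, 2.2, 1.48 and 1.57 FPKM in Brz-treated Col-0 against 0.6, 0.32 and 0.46 FPKM in Col-0. It met the filter through the 3 treated libraries and no Col-0 library, so the filter chose it for being high there and its call supports nothing. It did not pass with the length trend removed (0.67, adjusted p = 0.080). SCL3, a DELLA target, did not pass as deposited (0.13) but did with the length trend removed (0.62, adjusted p = 0.0046). XERICO, listed among DELLA partners and targets, had 12.89, 9.64 and 10.93 FPKM in Brz-treated Col-0, against 15.29, 17.92 and 13.18 FPKM in Col-0. It did not pass as deposited and was called lower with the length trend removed. After that correction SLY1 and SCL3 were higher and XERICO lower of the 18, when 13.1% of all genes rose and 10.4% fell.

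Between MIR394A OE and Brz-treated Col-0 4 of the 18 were higher (SEC, SPY, GA3OX2 and RGL3) and 3 lower (SLY1, LBD40 and GA2OX4). Of all genes 25.8% were higher and 12% lower. GA2OX4 met the filter through the 3 Brz-treated libraries and Col-0 replicate 2, with 0.69, 0.54 and 0.69 FPKM in MIR394A OE. LBD40 met it through the 3 Brz-treated libraries and MIR394A OE replicate 2, at 1.01 FPKM. The filter kept both for being high in Brz-treated Col-0, so their calls here support nothing. SLY1 was lower by -1.02 and SEC higher by 1.02 on the log2 scale, and the calls of GA3OX2 (adjusted p = 0.0494) and RGL3 (0.0496) were at the threshold and, like that of GA2OX4 (0.0286), were lost without most single libraries. GA20OX3, a further synthesis gene, was below the filter, with 0.67, 0.29 and 0.38 FPKM in Brz-treated Col-0 and 0.03, 0.15 and 0.12 FPKM in Col-0.

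**Figure D5:**
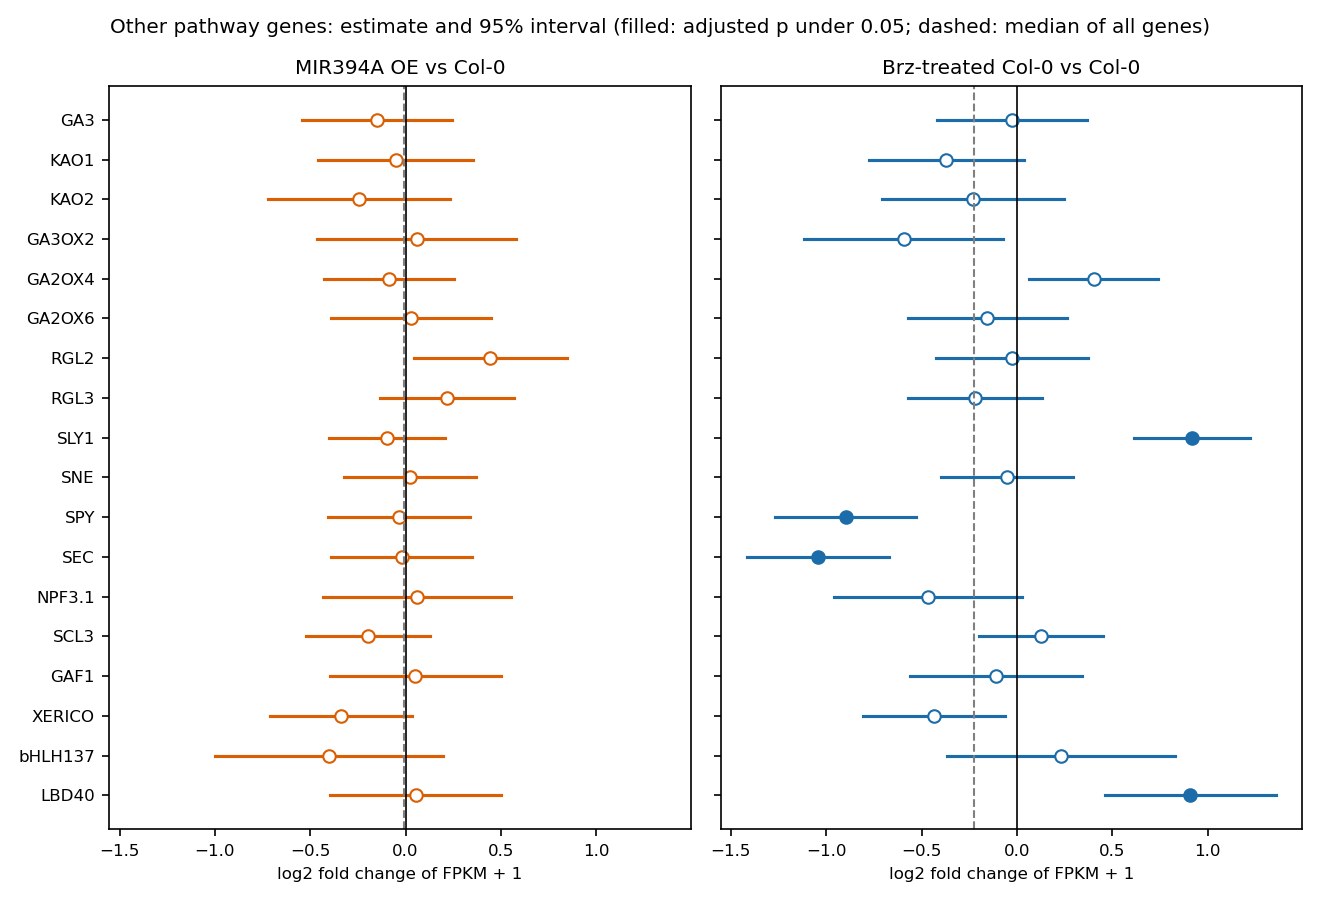
Log2 fold change of FPKM + 1 (x axis, 95% intervals) of the 18 other pathway genes tested (y axis) for MIR394A OE vs Col-0 and Brz-treated Col-0 vs Col-0; filled points have an adjusted p under 0.05 and the dashed line is the median of all tested genes. No point is filled for MIR394A OE, and SLY1 and LBD40 (above 0) and SPY and SEC (below 0) are filled for Brz.

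The genes whose levels followed GA3OX1 most closely were AT5G26270, J20 and TMM, at Euclidean distances of 0.265, 0.482 and 0.54 between log2(FPKM + 1) values centred over the 9 libraries. GA3OX1 had the largest absolute log2 fold change of FPKM + 1 among the members in both comparisons with Col-0. For Brz this ranking rests on the 1 added: with 0.1 added, GA20OX1 was at -0.88 and GA3OX1 at -0.80. AT5G26270 had 53.58, 56.14 and 39.48 FPKM in MIR394A OE and 45.64, 42.59 and 50.44 FPKM in Brz-treated Col-0, against 72.16, 64.19 and 88.43 FPKM in Col-0. As for GA3OX1, MIR394A OE replicate 3 was the lowest and Col-0 replicate 3 the highest library.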

How the data were processed

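The authors deposited 1 table of FPKM values, per the file headers, for 9 libraries of 3 groups. Bowtie2 and HISAT appear in the submitters' processing notes without versions. The genome build is not given in the sources used here. The same holds for the annotation, the program behind FPKM and its use of strand. Of 27647 loci 27438 matched TAIR10.1, which was used for names, lengths and sequences only, looked up by locus.

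Genes with at least 1 FPKM in at least 3 libraries (17662) were fitted on log2(FPKM + 1) with limma 3.58.1 in R 4.3.3, with group means and an intensity trend. P-values are two-sided and adjusted by Benjamini-Hochberg over all genes, with calls under 0.05. The fit was tested on simulated data. Depth is an estimate, with 83.4% to 88.2% of low FPKM values within 0.1 of a whole number of reads. Intervals cover library-to-library spread.

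Members and the list of 33 further genes were chosen with earlier results of these data known. All members were named, plus every further gene called, and the 3 nearest profiles to the most changed member. RGL2, SCL3, XERICO and GA20OX3 were named after their values were seen. Alternatives covered scaling by median ratios or quantiles, filters, pseudocounts, limma without the trend, a fit of the 2 compared groups alone, a block for the replicate number, a loess trend on log2 transcript length (span 0.5) removed per library, and each library left out. Leaving out 3 libraries together was added after seeing the data. The upstream window of 1 member is not reported here.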

Additional observations from a re-analysis of the deposited data

How the results depend on the processing

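Of 547 alternative values of the 30 member fold changes, 440 kept direction and side of the threshold, and 43 kept direction but lost the call. Another 17 gained a call and 47 changed sign. Other filters, no trend, the 2 groups alone or the block leave the fold change itself as it was, so direction was fixed there. In MIR394A OE against Col-0 the lowest adjusted p of a member was 0.67 (limma). The 440 are therefore no measure of robustness. In MIR394A OE against Col-0 no alternative called a member or another pathway gene. The counts of called members, 4 in Brz-treated Col-0 against Col-0 and 4 in MIR394A OE against Brz-treated Col-0, ran from 2 to 4 and from 1 to 4 with 1 library left out. The other pathway genes, 4 and 7 in the same comparisons, ran from 4 to 6 and from 4 to 7. In those fits 1514 to 2282 of all genes were higher and 2623 to 7173 lower in the first comparison. In the second 2294 to 6854 were higher and 1252 to 2605 lower. With a filter at 5 FPKM, which tested fewer genes, 3 of the 7 were called (SEC, SLY1 and SPY). There 3363 of 11767 genes were higher and 1841 lower. Length correction gave 4 calls, all lower, of which only SLY1 was among the 7, at a background of 9.29% higher and 11.1% lower.

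Same-numbered libraries deviated from their group means with correlations of -0.64 to 0.153. With 3 libraries per group these values cannot decide whether the numbers pair libraries, and the labels do not say that they do. With the replicate number as a block 3 members were called in each of the Brz comparisons (GID1C lost in the first, GA20OX1 in the second). The block left 4 other pathway genes called in each. Of 17662 genes, 1907 were then higher and 4089 lower in the first comparison, and 3609 higher and 1671 lower in the second. With block and length correction together the members called were 1 and 2, and the other pathway genes 2 and 3. Of all genes 1429 were then higher and 1048 lower in the first comparison, and 834 higher and 1049 lower in the second. GA3OX1 (-0.64, adjusted p = 0.089 by limma), GAI (-0.09, 0.79) and GA20OX1 (-0.45, 0.12) were then not called in Brz-treated Col-0 against Col-0.

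In Brz-treated Col-0 against Col-0, median-ratio scaling gave 0.087 for GA2OX2, 0.13 for RGA and 0.12 for GID1B, and quantiles gave 0.20 for GA2OX2 and 0.15 for GID1B. Length correction, with or without the block, gave 0.28 for GA2OX2, 0.35 for RGA and 0.26 for GID1B. Without the 3 libraries that stood apart, a choice made after seeing the data, length correction gave 0.19, 0.43 and 0.34 for these genes. Of 9 members tested there, 3 were called higher (GID1A, GID1C and RGA) and 2 lower (GA20OX1 and GA3OX1). In the same fit 2724 of 17106 genes were higher and 2898 lower. In MIR394A OE against Brz-treated Col-0, GA3OX1 was -0.21 by median ratios, -0.24 by quantiles, -0.079 by length (also with the block) and -0.014 by length without those 3 libraries. GA2OX2 was -0.063, -0.16, -0.25 and -0.38 under the same settings. RGA was -0.19 by length (also with the block) and -0.24 by length without those libraries, and GID1B was 0.010 without them. In MIR394A OE against Col-0, GA20OX1 was 0.0084 by median ratios, 0.018 by quantiles and 0.0053 by length with or without the block. GA2OX2 was -0.20 without those 3 libraries and -0.19 with length correction added. The cause was not tested.

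With 1 library left out, estimates for MIR394A OE against Col-0 ran from -0.095 to 0.093 for GA20OX1 and from -0.14 to 0.11 for GA2OX2. For Brz-treated Col-0 against Col-0 they ran from -0.25 to 0.049 for GA2OX2 and from -0.063 to 0.26 for GID1A. For MIR394A OE against Brz-treated Col-0 they ran from -0.086 to 0.14 for GA3OX1 and from -0.032 to 0.22 for GA2OX2. Members that a stricter filter or fewer libraries left untested, such as GA20OX2, have no value there. Low levels limit GA20OX1 and GA20OX2 most, at 16 to 77 reads per library.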
